A study of Danio rerio with 8 samples.

Results

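The translation initiation and elongation factors are the proteins that bring ribosomes to mRNAs, find the start codon and drive the ribosome along the message. Their genes were followed here in cells sorted from embryonal rhabdomyosarcoma of zebrafish, a cancer that resembles developing skeletal muscle. The members are all genes with a symbol that starts with eif or eef and at least 1 probe set of its own on the array: 64 of the 8793 named genes, read by 80 of the 15502 probe sets. A gene with several probe sets is represented by that of highest mean across the 8 arrays. The prefix also takes regulators and modifying enzymes of the factors, which are described apart from the factors themselves.

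Each of 2 tumours gave 4 populations, separated by a GFP reporter driven by the myf5 promoter, which is active in early myogenic cells, and an mCherry reporter driven by the mylz2 promoter, which is active in differentiated fast muscle. They are called GFP-only, double-positive (both reporters), mCherry-only and double-negative (neither), with 1 array per population and tumour (n = 2 arrays per population). All arrays share the rag2-kRAS12D transgene that started the tumours, the CG1 background and the passage through syngeneic recipients without the reporters, from which tumours were taken more than 20 days after transplantation. The rag2 promoter is known from lymphocyte precursors, the host's blood and other tissues carry neither reporter, and all cells of a tumour number come from the same tumour. The design asks whether cells with high myf5-GFP differ molecularly from the other tumour fractions.

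Initiation begins when eIF2, loaded with GTP and the initiator tRNA, joins the small ribosomal subunit together with eIF1A, eIF3 and eIF5. The exchange factor eIF2B reloads eIF2 after each round. The eIF4 proteins recognise the cap of the mRNA and unwind its leader, eIF5B and eIF6 act at the joining of the subunits, and eEF1A, its exchange complex eEF1B, eEF2 and eIF5A carry elongation. RAS signalling and the mTOR pathway are known to act on cap-dependent initiation through the eIF4E-binding proteins, and growing myoblasts are rich in this machinery.

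The deposited signals are on a log scale, taken here as log2, and span 0 to 12.79. The base of the logarithm is not given in the sources used here, and with a natural logarithm every fold would be larger at the same p. Levels of different genes cannot be compared on an array, so differences are taken only within a gene. Summed marker signals follow their brightest probe sets, and a gene's value is set against its array's median only to mark a low signal. Each difference is taken between populations as named, the first less the second, in log2 units, with its standard error (SE) from a limma fit over all 8 arrays and all probe sets, and p-values carry a Benjamini-Hochberg adjustment across the whole table with a threshold of 0.05. With 2 tumours the p-values measure only the spread between these arrays, and precision is limited by how many arrays there are. GFP-positive denotes GFP-only and double-positive cells together, and GFP-negative the other 2 populations. mCherry-positive and mCherry-negative are used in the same way. The reporter contrasts reuse the arrays of the pairwise ones, so the comparisons are not independent of each other.

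In tumour 2 the mCherry-only and double-negative arrays, called the outlying arrays below, stood apart from the rest, with mean rank correlations of 0.648 and 0.653 to the arrays of GFP-positive cells, against 0.805 to 0.849 for the other arrays. The 11 measured fast muscle markers followed the mCherry label. Of them 6 were called higher in mCherry-positive cells, where 0.284% of all probe sets were called in either direction. Their list medians were 8.54 to 10.44 in mCherry-positive arrays against 3.91 to 6.13 in mCherry-negative arrays. Myeloid markers moved with the GFP label: 8 of 10 myeloid markers were called lower in GFP-positive cells, where 0.839% of all probe sets were called in either direction. The summed myeloid signal was 6.36 to 6.61 in GFP-only cells and 7.89 to 8.24 in double-positive cells. It was 11.81 to 11.95 in mCherry-only cells and 11.84 to 12.09 in double-negative cells. The summed erythroid signal was 5.60 to 5.64, 6.17 to 6.32, 9.14 to 11.01 and 11.40 to 12.25 in the same order, and that of exocrine pancreas 6.22 to 6.84, 6.69 to 7.30, 6.99 to 7.04 and 9.91 to 10.39. The similar myeloid sums of mCherry-only and double-negative cells did not come from the same genes throughout. Values of coro1a were 9.27 and 9.64 in mCherry-only and 9.31 and 10.44 in double-negative cells. For marco they were 9.91 and 9.67 against 6.10 and 4.38, and for lyz 1.85 and 3.60 against 10.81 and 10.57. In mCherry-only cells the erythroid sum was mostly hbaa1, at 9.03 and 10.96, while the other erythroid markers were at 1.05 to 4.84. The summed signals of the 3 lymphocyte markers were, in the same order of populations, 3.85 to 4.45, 3.99 to 4.14, 5.25 to 5.26 and 6.63 to 6.67. Their rise was mostly that of ikzf1, at 4.81 and 4.40 in mCherry-only and 6.45 and 6.25 in double-negative cells. Over all arrays rag2 was at 2.01 to 3.17 and rag1 at 1.42 to 3.91. The sums of the 3 endothelial markers were 4.99 to 5.51, 5.58 to 5.59, 5.74 to 6.48 and 5.45 to 5.71. The 8 muscle progenitor markers had list medians of 5.38 to 6.80 in GFP-positive arrays and 4.14 to 5.33 in GFP-negative arrays. Of these markers 0 of 8 were called by limma and 4 were higher at an unadjusted p under 0.05, against 6.29% of all probe sets. The 4 were myf5 (1.22), myog (1.85), desma (1.77) and cdh15 (2.7). Of these, desma was highest in double-positive cells, at 10.07 and 10.48 against 9.16 and 8.69 in GFP-only cells. Differences were below 0 for pax7a (-0.52), pax3a (-0.43) and myod1 (-0.16). No marker was at 0 on any array. The part of these other cells in the differences below was not tested, and fewer cells of a type and less RNA per cell cannot be told apart in sorted bulk samples.

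Most of the 64 genes had a higher signal in GFP-only cells than in those with mCherry alone, but no single gene passed the test. The median of the members was 7.40 and 6.90 in GFP-only, 7.14 and 6.86 in double-positive, 6.82 and 5.86 in mCherry-only and 7.14 and 6.22 in double-negative cells (tumour 1 and tumour 2). The lowest of these 8 values belongs to the tumour 2 mCherry-only array and the next lowest to the tumour 2 double-negative array. The medians of all probe sets lay between 4.54 and 4.71 and did not follow this order.

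**Figure D1:**
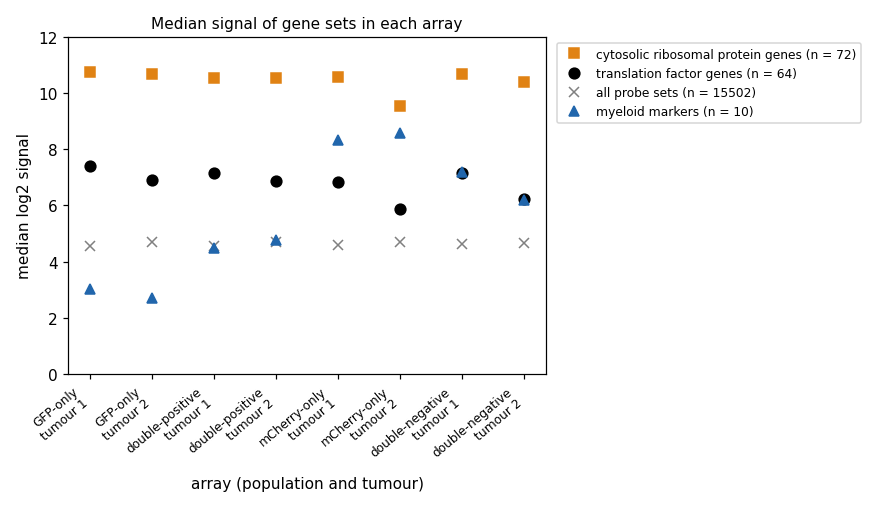
Median log2 signal in each of the 8 arrays (x axis, population and tumour) for 72 cytosolic ribosomal protein genes, the 64 translation factor genes, all 15502 probe sets and 10 myeloid markers. The translation factor median is 5.86 and 6.22 in the outlying arrays (mCherry-only, then double-negative, both of tumour 2) and between 6.82 and 7.40 in the other arrays, while the myeloid median is at most 4.77 in GFP-positive and at least 6.18 in GFP-negative cells.

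Between GFP-only and mCherry-only cells the members had a median difference of 0.69, against -0.08 over all probe sets. The difference was above 0 in both tumours for 44 of 64 members and below 0 in both for 9, where 32.2% and 36.3% of all probe sets did the same. limma called 0 members, where it called 0.858% of all probe sets, and the lowest adjusted p among members was 0.281 (0.137 with the tumour as a block, also with 0 calls, against 1.6% of all probe sets). At an unadjusted p under 0.05, 7 members were higher and 1 was lower, or 10.9% and 1.56%, against 5.88% and 5.37% of all probe sets. With the block 16 were higher and 2 lower at that level, or 25% and 3.12%, against 9.57% and 7.93%. Without the block the higher ones were eif2b2, eif2b3, eif2d, eif4a2, eif4ea, eif5a2 and eef1akmt2, and the lower one was eef1a1a. Without the tumour 2 mCherry-only array the median was 0.33, and without the tumour 1 GFP-only array it was 0.43.

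Between GFP-positive and GFP-negative cells, with 4 arrays on each side, the median was 0.45 against -0.01 over all probe sets. In both tumours 45 members were above 0 and 7 below, against 32.4% and 31.4% of all probe sets. Again 0 members were called, against 0.839% of all probe sets (lowest adjusted p = 0.256; with the block 0 again against 1.72%, lowest adjusted p = 0.107), and 4 were higher at an unadjusted p under 0.05, which is 6.25% of the members against 6.29% of all probe sets. These were eif2d, eif4a2, eif4ea and eef1akmt2. With the block 14 members reached that level, or 21.9% against 10.2%. The median difference was 0.20 within tumour 1 and 0.70 within tumour 2. It was 0.28 without the tumour 2 double-negative array, and without the outlying arrays it was 0.16, with 0 members at an unadjusted p under 0.05, against 1.58% higher and 3.48% lower of all probe sets. Leaving out the outlying arrays, here and below, keeps only tumour 1 on the GFP-negative side. Such a difference therefore also takes in the difference between the tumours. For 2 members all 4 GFP-positive arrays lay above all 4 GFP-negative ones, eif2b4 and eif4a2, against 2.34% of all probe sets.

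**Figure D2:**
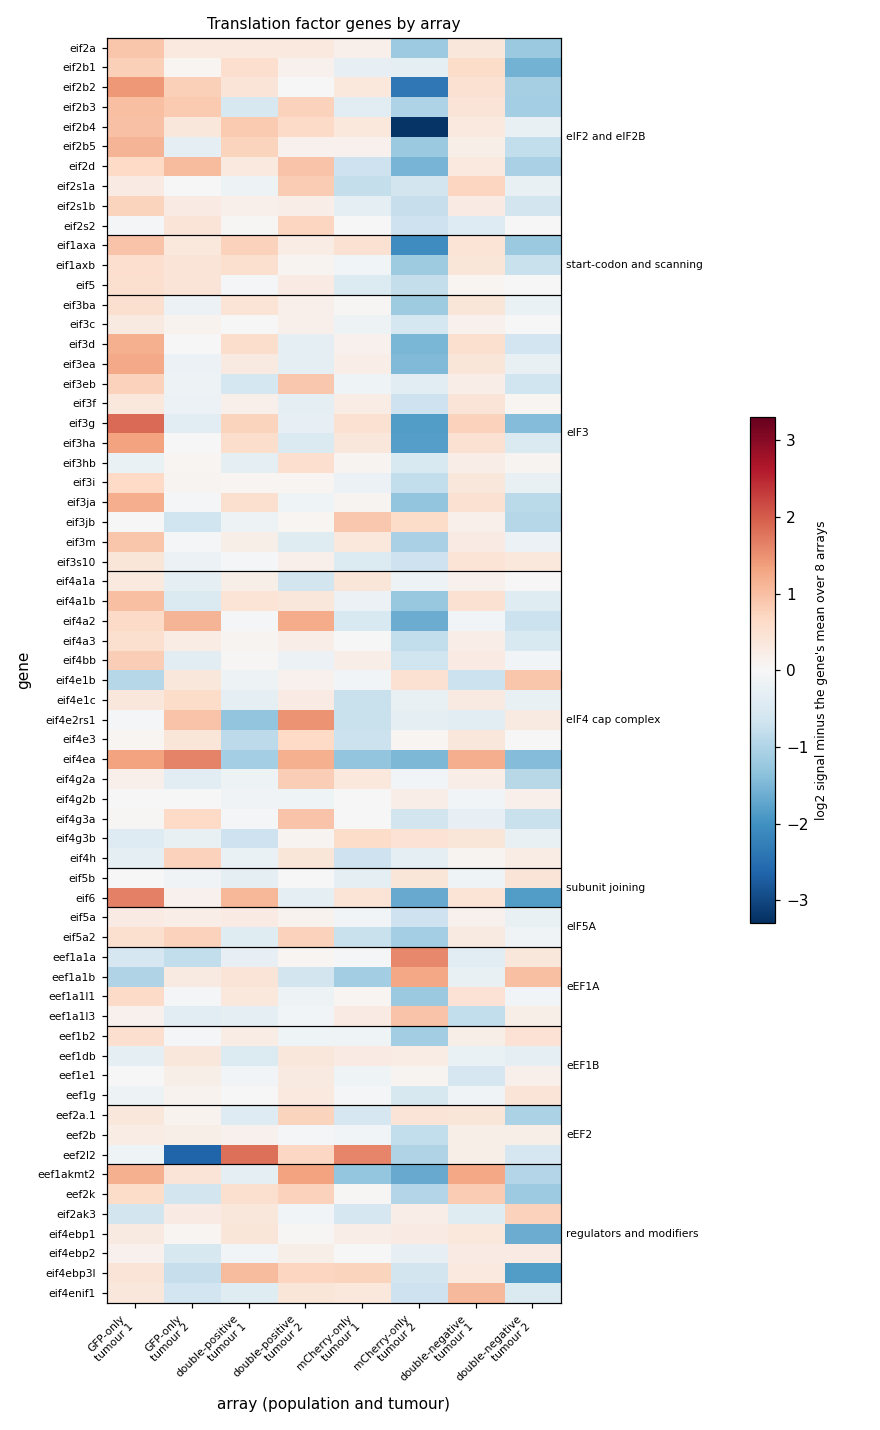
Log2 signal of each of the 64 genes (rows, grouped by role) in each of the 8 arrays (columns), shown as the deviation from the gene's mean over the arrays, with red above and blue below it. The GFP-only array of tumour 1 is mostly red and the tumour 2 mCherry-only array mostly blue, with exceptions such as eef1a1a, at 5.33 there and 2.93 to 4.12 elsewhere.

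Genes of eIF2 and its exchange factor eIF2B, with eif2a and eif2d, had a higher mean signal in GFP-positive cells throughout. All 10 measured genes had a difference above 0 between GFP-positive and GFP-negative cells in both tumours, with a median of 0.89 and a range from 0.47 to 1.48, and all 10 stayed above 0 without the outlying arrays, at a median of 0.32. None passed the adjusted test, 1 had an unadjusted p under 0.05, where 6.29% of all probe sets were higher at that level, and 6 did with the block, against 10.2%. The summed myeloid signal ran the other way, at 6.36 to 8.24 in GFP-positive and 11.81 to 12.09 in GFP-negative cells, and its part was not tested. Between double-positive and double-negative cells the 10 genes of eIF2 and eIF2B had a median difference of 0.64. Without the tumour 2 double-negative array that median was -0.07, with 4 of 10 genes above 0, a value that also takes in the difference between the tumours. The gene eif2d codes for a factor that can place tRNA on the ribosome without GTP and takes part in ribosome recycling. It was at 5.33 and 5.71 in GFP-only, 4.98 and 5.59 in double-positive, 3.97 and 3.12 in mCherry-only and 4.98 and 3.60 in double-negative cells. The groups touch only at 4.98, shared by the double-positive and double-negative arrays of tumour 1. The mCherry-only values of eif2d and its tumour 2 double-negative value lie under the medians of their arrays. Its difference between GFP-positive and GFP-negative cells was 1.48 ± 0.45 (SE; unadjusted p = 0.00795, adjusted p = 0.256), 0.68 in tumour 1 and 2.29 in tumour 2.

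The 5 subunits of eIF2B, the guanine nucleotide exchange factor, are all on the array. The delta subunit gene eif2b4 was at 6.82 and 6.23 in GFP-only, 6.70 and 6.47 in double-positive, 6.19 and 2.60 in mCherry-only and 6.18 and 5.59 in double-negative cells. Its low value on the tumour 2 mCherry-only array sets most of the difference between GFP-only and mCherry-only cells, 2.13 ± 0.96 (adjusted p = 0.447), which was 0.33 without that array and 3.92, with an adjusted p of 0.0484, without the tumour 1 mCherry-only array. The double-positive minus mCherry-only difference of 2.19 ± 0.96 (adjusted p = 0.639) was 0.39 without the array of tumour 2. The beta subunit gene eif2b2 was at 7.48 and 6.83 in GFP-only, 6.47 and 6.04 in double-positive, 6.40 and 3.70 in mCherry-only and 6.55 and 4.97 in double-negative cells. In each tumour it was highest in GFP-only cells, with a difference of 2.10 ± 0.87 to mCherry-only (adjusted p = 0.407), 1.40 ± 0.87 to double-negative (adjusted p = 1.00) and 0.90 ± 0.87 to double-positive cells. The difference to mCherry-only cells was 1.08 in tumour 1 and 3.13 in tumour 2. That to double-negative cells was 0.93 in tumour 1 and 1.86 in tumour 2, and 0.61 without the tumour 2 double-negative array. For eif2b3, the gamma subunit gene, GFP-only values were 5.14 and 5.03 against 3.62 and 4.92 in double-positive, 3.80 and 3.13 in mCherry-only and 4.57 and 3.02 in double-negative cells. The mCherry-only and double-negative values of eif2b3 and its tumour 1 double-positive value lie under the medians of their arrays. The alpha and epsilon subunit genes eif2b1 and eif2b5 differed by 0.76 and 0.85 between GFP-positive and GFP-negative cells.

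Of eIF2 itself, the alpha subunit is the one that stress kinases phosphorylate. Its gene eif2s1b was at 9.18 and 8.72 in GFP-only, 8.61 and 8.67 in double-positive, 8.11 and 7.68 in mCherry-only and 8.72 and 7.83 in double-negative cells. The GFP-positive minus GFP-negative difference was 0.71 ± 0.39 (adjusted p = 0.551), 0.48 in tumour 1 and 0.94 in tumour 2. Its copy eif2s1a differed by 0.47 and the beta subunit gene eif2s2 by 0.55. The gene eif2a, which codes for a separate initiator tRNA carrier and not for a subunit of eIF2, differed by 0.94 ± 0.49 (adjusted p = 0.526).

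**Figure D3:**
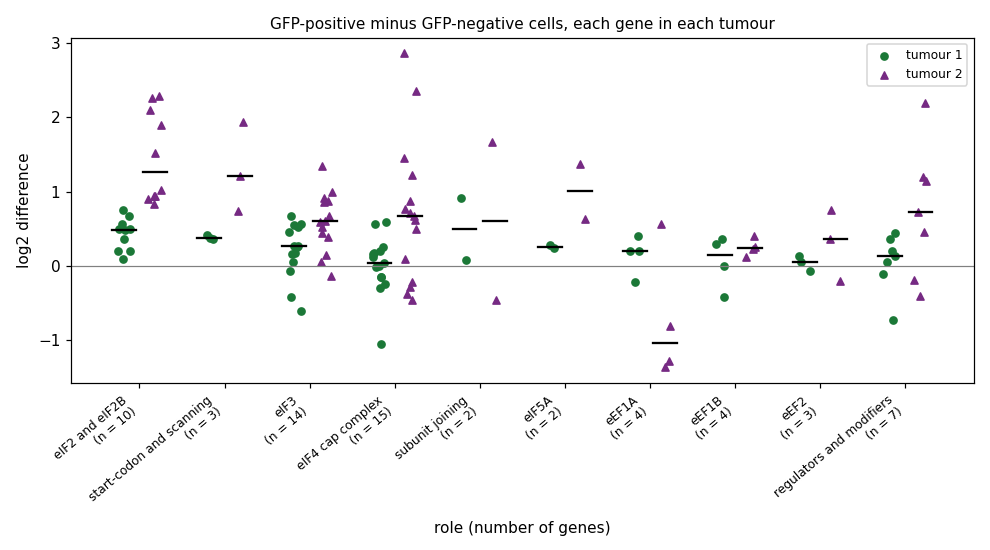
Difference in log2 signal between GFP-positive and GFP-negative cells (y axis) for each gene within tumour 1 (circles) and tumour 2 (triangles), grouped by role on the x axis, with a black line at each median. All 10 genes of eIF2 and eIF2B lie above 0 in both tumours (medians 0.49 and 1.27), whereas 3 of 4 eEF1A genes lie below 0 in tumour 2.

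The 3 measured genes of start-codon selection and scanning were also above 0 in both tumours. The eIF1A genes eif1axa and eif1axb code for a protein that keeps the scanning ribosome open, and eif5 codes for the GTPase activator of eIF2. Values of eif1axb were 8.62 and 8.49 in GFP-only, 8.61 and 8.17 in double-positive, 7.99 and 6.90 in mCherry-only and 8.47 and 7.34 in double-negative cells, with a GFP-positive minus GFP-negative difference of 0.80 ± 0.44 (adjusted p = 0.547). The lowest 2 values come from the outlying arrays, and without them the difference was 0.24. The corresponding differences of eif1axa and eif5 were 1.15 ± 0.61 and 0.58.

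The eIF3 complex, the scaffold that binds the small subunit and recruits the mRNA, is represented by 14 genes. Between GFP-only and mCherry-only cells 12 of them were above 0 in both tumours and 1, eif3jb, below, with a median of 0.76. Between GFP-positive and GFP-negative cells the median was 0.45, but without the outlying arrays it was -0.02, with 7 of 14 genes above 0. That value sets GFP-positive arrays of both tumours against GFP-negative arrays of tumour 1 only, so it takes in the tumour difference. The median tumour 2 minus tumour 1 difference of the eIF3 genes was -0.82 in GFP-only and -0.40 in double-positive cells. The core subunit gene eif3c was at 9.45 and 9.28 in GFP-only, 9.18 and 9.34 in double-positive, 8.99 and 8.59 in mCherry-only and 9.31 and 9.14 in double-negative cells. Its values in mCherry-only cells are the lowest of each tumour, and its GFP-positive minus GFP-negative difference was 0.31 ± 0.36 (adjusted p = 0.803). The copies eif3ja and eif3jb, which code for the loosely bound j subunit, had GFP-only minus mCherry-only differences of opposite sign, 1.19 ± 0.74 and -1.07 ± 0.58. The difference between the copies was not tested. Values of eif3jb were 5.02 and 4.36 in GFP-only, 4.85 and 5.08 in double-positive, 5.90 and 5.62 in mCherry-only and 5.19 and 4.08 in double-negative cells, so that in each tumour mCherry-only cells had the highest value. For eif3s10, which codes for the large a subunit, the double-positive minus double-negative difference of -0.35 was among the 3 lowest of that comparison.

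The cap-binding and helicase genes varied more among themselves. They are taken with the other eIF4 genes by symbol, without the regulators, and not by proven membership of the cap complex. Of these 15 genes 8 were above 0 and 3 below 0 in both tumours between GFP-positive and GFP-negative cells, with a median of 0.33. The cap-binding protein gene eif4ea had the largest difference of all members between GFP-only and mCherry-only cells. It was at 6.64 and 6.96 in GFP-only, 4.21 and 6.50 in double-positive, 4.02 and 3.84 in mCherry-only and 6.52 and 3.90 in double-negative cells. All values lie either between 3.84 and 4.21 or between 6.50 and 6.96: both GFP-only arrays are high and both mCherry-only arrays low, while the double-positive and double-negative populations split by tumour in opposite ways. The GFP-only minus mCherry-only difference was 2.87 ± 0.93 (unadjusted p = 0.0111, adjusted p = 0.281), 2.62 in tumour 1 and 3.12 in tumour 2. It stayed between 2.71 and 3.03 when any 1 array was left out. The values of 3.84 to 4.21 all lie under the medians of their arrays. The differences of GFP-only from double-negative cells (1.59) and from double-positive cells (1.44) each rest on 1 array, being 0.28 without the tumour 2 double-negative array and 0.30 without the tumour 1 double-positive array.

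The helicase gene eif4a2 was at 6.70 and 7.18 in GFP-only, 6.02 and 7.28 in double-positive, 5.57 and 4.42 in mCherry-only and 5.97 and 5.35 in double-negative cells. Its GFP-positive and GFP-negative arrays did not overlap, although 6.02 and 5.97 nearly meet. The difference was 1.47 ± 0.46 (unadjusted p = 0.00963, adjusted p = 0.271), 0.59 in tumour 1 and 2.35 in tumour 2. The related helicase gene eif4a1a did not share this pattern in its values: it was at 8.72 and 8.11 in GFP-only, 8.59 and 7.78 in double-positive, 8.80 and 8.23 in mCherry-only and 8.53 and 8.42 in double-negative cells, a difference of -0.19 ± 0.40 (adjusted p = 0.889). A second eif4a1a probe set had means of 7.46 in GFP-positive and 7.36 in GFP-negative cells. The copy eif4a1b differed by 0.67, and eif4a3 had means of 7.37 in GFP-positive and 6.83 in GFP-negative cells. Of the scaffold genes, eif4g3b had one of the lowest differences, at -0.63 ± 0.39 (adjusted p = 0.593), with -1.05 in tumour 1 and -0.21 in tumour 2. Its copy eif4g3a had a difference of opposite sign, 0.80. The other probe sets of eif4g3a had means of 3.91 and 3.45 in GFP-positive and 3.48 and 3.60 in GFP-negative cells. The gene of the other canonical scaffold, eif4g1a, shares its probe set with another gene and was not analysed here.

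**Figure D4:**
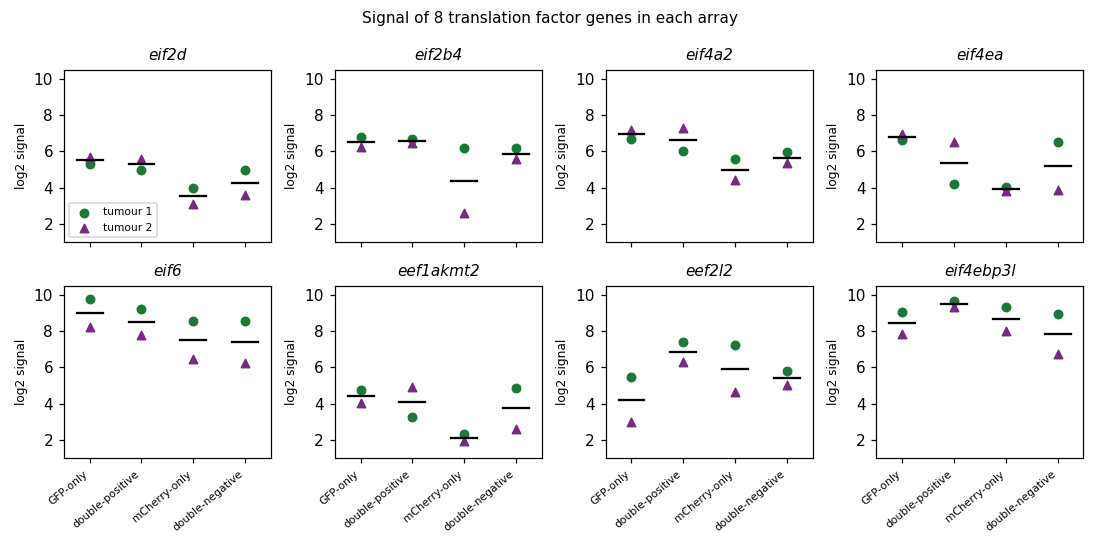
Log2 signal (y axis) of 8 translation factor genes in the 4 populations (x axis), with circles for tumour 1, triangles for tumour 2 and a line at the mean of both. In eif4ea both GFP-only values are above 6.6 and both mCherry-only values near 4, in eif6 tumour 2 lies below tumour 1 in every population, and in eef2l2 GFP-only cells are below double-positive cells in each tumour.

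At subunit joining, the anti-association factor gene eif6 differed by population and by tumour. It was at 9.76 and 8.23 in GFP-only, 9.20 and 7.79 in double-positive, 8.56 and 6.44 in mCherry-only and 8.55 and 6.24 in double-negative cells. Within each tumour GFP-only cells had the highest value and double-positive cells the next, while every value of tumour 2 was below that of the same population in tumour 1. The GFP-positive minus GFP-negative difference was 1.30 ± 0.69 (adjusted p = 0.533), and with the block, which takes the tumour out, 1.30 ± 0.35 (unadjusted p = 0.00399, adjusted p = 0.107). This blocked adjusted p is the lowest of any member in the 9 comparisons. Without the outlying arrays, the unblocked difference was 0.19, with both tumours on the GFP-positive side and only tumour 1 on the other. Within tumour 1 the difference was 0.92, and within tumour 2 it was 1.67. The GTPase gene eif5b was at 6.29 and 6.20 in GFP-only, 6.02 and 6.33 in double-positive, 5.99 and 6.70 in mCherry-only and 6.17 and 6.74 in double-negative cells, a difference of -0.19 ± 0.38 (adjusted p = 0.888).

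The genes of eIF5A, the hypusine-carrying factor that helps ribosomes through difficult peptide bonds, were both above 0 in each tumour. For eif5a the arrays gave 11.14 and 11.09 in GFP-only, 11.15 and 11.00 in double-positive, 10.79 and 10.19 in mCherry-only and 11.03 and 10.63 in double-negative cells. The GFP-positive minus GFP-negative difference was 0.44 ± 0.37 (adjusted p = 0.720). Its relative eif5a2 was at 8.89 and 9.13 in GFP-only against 7.63 and 7.25 in mCherry-only cells, a difference of 1.57 ± 0.58 (adjusted p = 0.346), and a second probe set of the gene gave 2.25.

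Among the eEF1A genes 1 was above 0 and 1 below 0 in both tumours between GFP-positive and GFP-negative cells, with a median of -0.37 (0.02 without the outlying arrays). These 4 eEF1A genes, which code for the carrier of aminoacyl-tRNA, are similar enough in sequence that a probe set could read more than 1 of them. The gene eef1a1l1 was at 11.92 and 11.26 in GFP-only, 11.64 and 11.13 in double-positive, 11.37 and 10.06 in mCherry-only and 11.77 and 11.20 in double-negative cells. Its mCherry-only value was the lowest in each tumour, and its GFP-positive minus GFP-negative difference of 0.39 ± 0.44 (adjusted p = 0.793) was 0.06 without the tumour 2 mCherry-only array. By contrast eef1a1a was at 3.18 and 2.93 in GFP-only, 3.46 and 3.81 in double-positive, 3.71 and 5.33 in mCherry-only and 3.38 and 4.12 in double-negative cells. Its GFP-only minus mCherry-only difference was -1.46 ± 0.64 (unadjusted p = 0.0463, adjusted p = 0.434), and -0.66 without the tumour 2 mCherry-only array. The copies eef1a1b and eef1a1l3 had differences of -0.43 and -0.30 between GFP-positive and GFP-negative cells, with opposite signs in the 2 tumours. Apart from the values of eef1a1a and eef1a1b on the tumour 2 mCherry-only array, all values of these 3 copies lie below the median of their array.

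Of the eEF1B exchange complex, eef1b2 was at 11.33 and 10.71 in GFP-only, 11.02 and 10.63 in double-positive, 10.64 and 9.62 in mCherry-only and 10.98 and 11.26 in double-negative cells. The mCherry-only value is again the lowest of each tumour, and the mCherry-positive minus mCherry-negative difference was -0.59 ± 0.41 (adjusted p = 0.993). The structural subunit gene eef1g was at 10.03 and 10.31 in GFP-only, 10.21 and 10.53 in double-positive, 10.14 and 9.67 in mCherry-only and 10.09 and 10.64 in double-negative cells, with differences of 0.13 ± 0.38 for GFP and -0.13 ± 0.38 for mCherry. The translocase gene eef2b was at 11.29 and 11.09 in double-positive and 11.07 and 10.34 in mCherry-only cells, against 11.41 and 11.34 in GFP-only and 11.34 and 11.35 in double-negative cells. All 4 mCherry-positive arrays were thus below all 4 mCherry-negative ones, as for 1.02% of all probe sets, by -0.41 ± 0.37 (adjusted p = 0.993).

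The gene eef2l2, an eef2-like gene by its symbol, ran the other way. It was at 7.41 and 6.29 in double-positive and 7.22 and 4.62 in mCherry-only cells, against 5.46 and 2.97 in GFP-only and 5.79 and 5.05 in double-negative cells. The mCherry-positive minus mCherry-negative difference was 1.57 ± 0.70 (unadjusted p = 0.0491, adjusted p = 0.909), 1.69 in tumour 1 and 1.44 in tumour 2, and 1.57 ± 0.42 with the block (adjusted p = 0.218). Its 2 other probe sets gave 0.68 and 0.67, but not the same direction in tumour 2. In tumour 2 they were at 4.81 and 3.03 in double-positive and 3.22 and 2.78 in mCherry-only cells. There GFP-only cells gave 4.78 and 2.67 and double-negative cells 4.10 and 3.56, so neither had a higher mCherry-positive mean. GFP-only minus double-positive was its largest difference, -2.64 ± 0.99 (adjusted p = 1.00, blocked 0.344), which was -1.39 without the tumour 2 GFP-only array. In tumour 2 the brighter of its 2 other probe sets was at 4.78 in GFP-only and 4.81 in double-positive cells. Fast muscle markers moved with eef2l2 between these populations, at list medians of 5.15 to 6.13 in GFP-only and 10.23 to 10.44 in double-positive cells. They also did so between mCherry-only and double-negative cells of tumour 1, but not of tumour 2. There eef2l2 was at 4.62 and 5.05, and the list medians were 8.54 and 3.91. The part of these markers in the eef2l2 differences was not tested.

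Among the 7 regulators and modifiers no shared direction appeared between GFP-only and mCherry-only cells, with 3 above 0 and 1 below 0 in both tumours and a median of 0.01 (-0.03 with quantile normalization). The eIF4E-binding proteins hold eIF4E back until mTOR phosphorylates them. The gene eif4ebp3l was at 9.02 and 7.83 in GFP-only, 9.63 and 9.30 in double-positive, 9.33 and 8.0 in mCherry-only and 8.91 and 6.74 in double-negative cells. In each tumour it was highest in double-positive cells and lowest in double-negative cells, with a difference between them of 1.64 ± 0.80 (adjusted p = 0.999, blocked 0.355) that was 0.55 without the tumour 2 double-negative array. The mCherry-positive minus mCherry-negative difference was 0.94 ± 0.57 (adjusted p = 0.993). Values of eif4ebp1 lay between 8.15 and 8.51 on 7 arrays and at 6.48 on the tumour 2 double-negative array, which sets its GFP-positive minus GFP-negative difference of 0.39 ± 0.48 (-0.11 without that array).

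The eEF1A methyltransferase gene eef1akmt2 was at 4.78 and 4.02 in GFP-only, 3.29 and 4.93 in double-positive, 2.33 and 1.93 in mCherry-only and 4.87 and 2.63 in double-negative cells. Both mCherry-only arrays had the lowest value of their tumour, and GFP-only minus mCherry-only was 2.27 ± 0.82 (unadjusted p = 0.0194, adjusted p = 0.335), 2.45 in tumour 1 and 2.09 in tumour 2. The mCherry-only values lie under the array medians. So do those of GFP-only cells of tumour 2, double-positive cells of tumour 1 and double-negative cells of tumour 2. Signal over background was not measured. The kinase gene eef2k, whose product inhibits eEF2, was at 5.68 and 4.45 in GFP-only, 5.61 and 5.82 in double-positive, 5.12 and 4.11 in mCherry-only and 5.90 and 3.86 in double-negative cells. Its GFP-positive minus GFP-negative difference of 0.64 ± 0.54 (adjusted p = 0.717) was 0.13 without the tumour 2 double-negative array. For eif2ak3, the kinase of the unfolded protein response that phosphorylates eIF2 alpha, it was -0.02 ± 0.44 (adjusted p = 0.993), with 0.36 in tumour 1 and -0.40 in tumour 2.

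The other pairs of populations gave smaller medians. GFP-only minus double-negative cells had a median of 0.30, against 0.02 over all probe sets, with 34 members above 0 and 12 below 0 in both tumours (31.4% and 29.2% of all probe sets). It was 0.04 without the tumour 1 GFP-only array and 0.08 without the tumour 2 double-negative array. Here 0 members were called and 0 had an unadjusted p under 0.05 by limma, against 0.516% called of all probe sets and 1.93% higher and 2.98% lower at that unadjusted p. With the block 0 were called, against 0.781%, while 2 had an unadjusted p under 0.05 upwards and 0 downwards, against 4.32% and 4.34%. GFP-only minus double-positive cells had a median of 0.13, 0.32 in tumour 1 and -0.03 in tumour 2, and -0.06 without the tumour 1 GFP-only array. In this comparison 0 members were called, against 0.00645% of all probe sets, and 1 was lower at an unadjusted p under 0.05, eef2l2, against 1.43%. With the block 0 were called, against 0.116%, and at the unadjusted level 0 were higher and 1 lower, against 1.23% and 2.41%. In both tumours 24 members were above 0 and 5 below, against 20.8% and 22.7%. The lowest differences after eef2l2 were -1.04 in eif4ebp3l and -0.65 in eef2k, and the highest were 1.44 in eif4ea, 0.90 in eif2b2 and 0.82 in eif2b3. Without the tumour 2 GFP-only array eef2k was at -0.03 and eif4ebp3l at -0.44, without the tumour 1 GFP-only array eif2b2 was at 0.58, and without the tumour 1 double-positive array eif2b3 was at 0.17.

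Double-positive minus mCherry-only cells had a median of 0.61, with 0.19 in tumour 1 and 1.04 in tumour 2, and 40 members above 0 and 7 below 0 in both tumours (29.5% and 28.5% of all probe sets). The median was 0.21 without the tumour 2 mCherry-only array. Of the members 0 were called by limma, against 0.329% of all probe sets, while 4 had an unadjusted p under 0.05 upwards and 0 downwards, against 3.74% and 3.95%: eif2b4, eif2d, eif4a2 and eef1akmt2. With the block these counts were again 4 and 0, against 6.89% and 5.27%. The lowest differences were -0.88 in eef1a1a, -0.84 in eif4g3b and -0.80 in eef1a1l3. Without the tumour 2 mCherry-only array eef1a1a was at -0.08 and eef1a1l3 at -0.47, and without the tumour 1 double-positive array eif4g3b was at -0.46. Double-positive minus double-negative cells had a median of 0.17 that was -0.06 in tumour 1 and 0.68 in tumour 2, -0.09 without the tumour 2 double-negative array and -0.01 with quantile normalization. There 0 members were called, against 0.542% of all probe sets, and 0 had an unadjusted p under 0.05 by limma, against 2.65% higher and 2.64% lower. With the block 3 were higher and 0 lower at that level, against 4.6% and 3.69%. In both tumours 16 members were above 0 and 10 below, against 22.1% and 19.8%, the highest differences being 1.64 in eif4ebp3l, 1.43 in eef2l2 and 1.1 in eif6. Without the tumour 2 double-negative array eif6 was at -0.06, a value that sets double-positive cells of both tumours against double-negative cells of tumour 1. Its difference was 0.65 within tumour 1 and 1.55 within tumour 2. Without the tumour 1 double-positive array eef2l2 was at 0.87.

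mCherry-only minus double-negative cells had a median of -0.38, against 0.04 over all probe sets, with 36 members below 0 and 10 above 0 in both tumours (28.0% and 30% of all probe sets). The median was 0.00 without the tumour 2 mCherry-only array and -0.13 without the tumour 1 double-negative array. Both values also take in the difference between the tumours. Within tumour 1 alone the median was -0.24. Again 0 members were called and 0 had an unadjusted p under 0.05 by limma, with or without the block, against 0.277% called of all probe sets. At that unadjusted p, 3.72% of all probe sets were higher and 2.46% lower, and with the block 5.31% and 3.8%. The lowest differences were -1.62 in eef1akmt2, -1.49 in eif2b4 and -1.28 in eif4ea, and the highest 1.12 in eif3jb, 0.92 in eef1a1l3 and 0.89 in eif4ebp1. With 1 array left out, eif2b4 was at 0.31 (tumour 2 mCherry-only array), eif4ea at 0.03, eef1akmt2 at -0.50 and eef1a1l3 at 0.42 (tumour 1 double-negative array), and eif4ebp1 at -0.11 and eif3jb at 0.57 (tumour 2 double-negative array).

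For the mCherry reporter as a whole, mCherry-positive minus mCherry-negative cells had a median of -0.26, against 0.04 over all probe sets. It was -0.32 in tumour 1 and -0.18 in tumour 2, with 34 members below 0 and 8 above 0 in both tumours (24.3% and 26.5% of all probe sets). Of 14 eIF3 genes 12 were below 0 in both tumours and 1 above, and of the 15 eIF4 genes grouped by symbol 9 were below and 1 above. limma called 0 members, against 0.284% of all probe sets, while 1, eef2l2, had an unadjusted p under 0.05 upwards and 0 downwards, or 1.56% of the members against 3.43% higher and 2.04% lower of all probe sets. With the block 2 were higher and 0 lower, or 3.12% against 5.15% and 3.57%. The lowest differences were -1.36 in eif4ea, -0.96 in eef1akmt2 and -0.81 in eif2b2, and the highest after eef2l2 were 0.94 in eif4ebp3l and 0.70 in eif3jb. With 1 array left out, eif4ea was at -0.71 and eef1akmt2 at -0.40 (tumour 1 double-negative array), eif2b2 at -0.13 (tumour 2 mCherry-only array), eef2l2 at 0.92 (tumour 1 mCherry-only array) and eif4ebp3l at 0.40 and eif3jb at 0.42 (tumour 2 double-negative array). Without the tumour 2 mCherry-only array the median was -0.05, without the tumour 1 double-negative array it was -0.11, and without the tumour 1 GFP-only array it was -0.16. The interaction of both reporters, which asks whether the GFP difference depends on mCherry, had 0 members called and 0 at an unadjusted p under 0.05 by limma, where 0 of all probe sets were called and 1.25% were higher and 1.05% lower at that level. With the block 1 member was lower, against 2.18% higher and 1.84% lower of all probe sets.

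The tumours separated these genes as well. In tumour 2 the signal was below that of tumour 1 in all 4 populations for 23 of 64 members, or 35.9%, and above it for 4, or 6.25%, against 12% and 16.1% of all probe sets. The median tumour 2 minus tumour 1 difference of the members was -0.48 in GFP-only cells, -0.60 in cells with mCherry alone and -0.62 in double-negative cells, but 0.14 in double-positive cells. Among the 23 were 8 of 14 eIF3 genes and 5 of 10 genes of eIF2 and eIF2B. For eif3g, an RNA-binding subunit gene, the tumour 2 minus tumour 1 difference was -2.22 in GFP-only cells, -0.99 in double-positive cells, -2.36 in cells with mCherry alone and -2.19 in double-negative cells. With 1 tumour of each number, the tumour difference has no replicate and was not tested.

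Repeated probe sets of a gene gave the same sign for all of them in 7 of the 12 genes that have several between GFP-only and mCherry-only cells, in 5 of 12 between GFP-positive and GFP-negative cells and in 10 of 12 between mCherry-positive and mCherry-negative cells. The 3 probe sets of eif1axb differed by 0.80, 0.04 and 0.96 between GFP-positive and GFP-negative cells, and those of eif2ak3 by -0.02, 0.57 and -0.12.

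Other genes of translation were read from fixed lists beside the members, and limma called 0 of their genes in any pairwise or reporter comparison, with or without the block. Termination and recycling genes had a median difference between GFP-positive and GFP-negative cells of 0.98 over 7 genes, with 6 above 0 in both tumours (32.4% of all probe sets) and 4 higher at an unadjusted p under 0.05 (6.29% of all probe sets): abce1, the recycling ATPase (1.47), abcf1, which binds eIF2 (1.26), and mcts1 and denr, partners in recycling and reinitiation (1.60 and 0.98). On the outlying arrays the 7 genes had median signals of 5.32 and 5.86, against 6.54 to 8.08 on the other arrays. The 19 cytosolic aminoacyl-tRNA synthetase genes had a median of 0.58, with 14 above 0 and 1 below 0 in both tumours. Their median signals were 5.86 and 6.49 on the outlying arrays and 6.85 to 7.36 on the others. The 72 cytosolic ribosomal protein genes had a median of 0.37, with 0.08 in tumour 1 and 0.66 in tumour 2. The 6 poly(A)-binding and partner genes had a median of 0.31, the 6 mitochondrial factors 0.47, the 6 stress response genes 0.33 and the 4 hypusine and diphthamide genes 0.18, with dohh, the last enzyme of hypusine synthesis, at 1.06. The poly(A)-binding and mitochondrial lists also had their lowest median signals on the outlying arrays. The 9 genes of the mTOR axis had a median of -0.31 between GFP-positive and GFP-negative cells. In another comparison, GFP-only minus mCherry-only, mtor itself, the kinase, differed by -1.34 (limma, unadjusted p = 0.0309, adjusted p = 0.390). Its difference was -1.41 in tumour 1 and -1.26 in tumour 2. In that comparison 5.37% of all probe sets were lower at an unadjusted p under 0.05.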

How the data were processed

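RNA from sorted cells of 2 tumours was amplified with a whole-transcriptome kit and hybridised to single-colour oligonucleotide arrays, 1 per population and tumour, per the labels' protocols. The deposited table holds 1 value per probe set and array on a log scale, read as log2 from its range. How the authors summarised and scaled the probes is not given in the sources used here, and the deposited normalization was kept. Probe sets were named from the platform's annotation: 10795 of 15502 carry 1 symbol, 135 several and 4572 none, and 1 symbol was updated through its gene identifier. A further 2 eif or eef probe sets with several symbols were left out. The eif2ak1 and eif2ak2 genes were not analysed here.

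All probe sets were fitted with limma 3.58.1 in R 4.3.3 on the 4 population means, with empirical Bayes moderation (4 residual degrees of freedom, 6.07 prior), and 9 comparisons were taken from that fit. The script was tested on simulated data. Fractions with equal numbers share a tumour, and the tumour number was also used as a block in a second fit. Deviations of arrays from the mean of their own population were correlated between same-numbered arrays of different populations. The correlations ran from -0.0291 (double-positive with double-negative) to 0.492 (GFP-only with double-negative).

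Genes named one by one are the 3 highest and 3 lowest differences of each pairwise and reporter comparison and a list of core factors and regulators. Those with an unadjusted p under 0.05 or non-overlapping groups were added, as were the other subunits, copies and translation genes, which were chosen after their values were seen. The members and all lists were chosen with earlier results of these data known. Alternatives were quantile normalization, a common array median, a variance prior that follows the mean, the mean or the most variable of a gene's probe sets, leaving out the dimmest 30% of probe sets, leaving out each array, leaving out both arrays that stood apart, fitting only the arrays compared, and the block.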

Additional observations from a re-analysis of the deposited data

How the results depend on the processing

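The count of translation factor genes called was 0 in each of the 9 comparisons and under every alternative run, except 1, eif2b4, between GFP-only and mCherry-only cells without the mCherry-only array of tumour 1, so that this count ranged from 0 to 1 when single arrays were left out. There 1 array stands for the mCherry-only population and is assumed to vary like the others. With the tumour as a replicate block the count was also 0 in all 9 comparisons, at lowest adjusted p-values of 0.107 to 0.999 among members. Of all probe sets limma called 0% to 0.858% without the block and 0% to 1.72% with it. Some alternatives called 0 of all probe sets, such as the fit on only the arrays compared between mCherry-only and double-negative cells. There a count of 0 says nothing about the members. Single arrays left out moved the member median from 0.33 to 0.95 for GFP-only minus mCherry-only, 0.04 to 0.61 for GFP-only minus double-negative, -0.06 to 0.23 for GFP-only minus double-positive, 0.21 to 0.88 for double-positive minus mCherry-only, -0.09 to 0.45 for double-positive minus double-negative, -0.72 to 0.00 for mCherry-only minus double-negative, 0.28 to 0.59 for GFP-positive minus GFP-negative, -0.41 to -0.05 for mCherry-positive minus mCherry-negative and -0.57 to 0.14 for the reporter interaction. Of the differences of single named genes, 55 of those recomputed changed sign, none of them called, 1214 kept sign and call, and 1, eif2b4 above, kept its sign and passed the threshold. Many of the differences that kept their sign could not have changed it. The block, the variance prior, the fit on only the arrays compared and leaving out an array outside the comparison all return the same difference. With quantile normalization the GFP-positive minus GFP-negative median was 0.31 and the GFP-only minus mCherry-only median 0.59. The fit on only the arrays compared has no counterpart for the reporter contrasts and the interaction, which already use all arrays, and the filter on dim probe sets left out some members. Signal over background was not measured, so low signals carry an unknown share of background. Probe sets of gene copies may read more than 1 copy.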
